A study of Mus musculus with 6 samples.

Results

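The calcium branch of T cell receptor signaling was examined through 10 genes, listed by symbol with earlier results of these data known. They were the calcium sensor *Stim1*, the channel *Orai1*, the calcineurin subunits *Ppp3ca*, *Ppp3cb* and *Ppp3r1*, and the calcineurin regulator *Rcan1*. The transcription factors *Nfatc1*, *Nfatc2*, *Nfatc3* and *Nfat5* completed the set. All 10 were among the 23183 gene symbols listed for each library, and all 10 were among the 10326 genes tested. The study asked how gene expression differs in CD4+ CD8+ double positive (DP) thymocytes of mice with a conditional knockout of NSrp70, a splicing factor encoded by *Nsrp1*. Sorted DP thymocytes of C57BL/6 mice aged 6 weeks were compared between 3 libraries of WT mice (*Nsrp1* f/f) and 3 libraries of NSrp70-cKO mice (*Nsrp1* f/f CD4Cre). The floxed *Nsrp1* alleles were thus shared by both groups, and they differed by the CD4Cre transgene and the deletion it causes. The Cre recombinase was driven by CD4 elements, a design meant to delete *Nsrp1* from the late double negative stage on. The paper reports a significant reduction of NSrp70 protein in cKO thymocytes. How complete the deletion was in the sorted DP cells was not measured here. A group without floxed alleles that carries CD4Cre was not analysed here, and the number of mice behind each library was not given in the sources used here.

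When the T cell receptor is engaged, phospholipase C gamma produces inositol trisphosphate, which opens receptors of the endoplasmic reticulum and empties its calcium store. STIM proteins sense the emptied store and open ORAI channels of the plasma membrane, and the calcium that enters binds calmodulin, which activates the phosphatase calcineurin. Calcineurin removes phosphates from NFAT proteins, which move to the nucleus, where they bind DNA often next to AP-1; kinases such as GSK3 and DYRK return NFAT to the cytoplasm. In thymocytes this branch is known for its part in positive selection, the step by which DP cells become single positive (SP) cells.

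The values were FPKM (fragments per kilobase of transcript and per M mapped fragments, where M is mega) and therefore compare genes per length. The deletion was checked first with *Nsrp1*, listed under its older symbol *Ccdc55*. Its FPKM were 20.2, 20.7 and 21.1 in the WT libraries and 17.7, 15.8 and 15.0 in the cKO libraries. All cKO values were below all WT values, at a mean of 78.2% of the WT mean (log2 fold change -0.34, adjusted p = 0.00675 by limma, and 0.184 with WT as 1 sample), and a whole-gene value does not show which exons were deleted. All 10 DP markers were detected in every library: 7 were higher in the cKO libraries, 2 were lower and 1 did not pass the test. Over all genes tested, 35.8% were higher and 29.8% lower. The 3 WT libraries differed from each other by little more than counting noise (a chi-square of 1.5 to 1.61 per degree of freedom), and the 3 cKO libraries by far more (27.1 to 61.8). Nothing in the labels says that libraries came from separate animals, so p-values measure only the spread between these libraries, which may be technical, above all in the WT group. Therefore the counts over the 10 genes and over all lists are also given with the mean of the WT libraries entered as 1 sample. Sex-linked transcripts also separated the groups: *Xist* was at 69.8 to 72.0 FPKM in WT and at 4.07 to 5.44 in cKO libraries, whereas *Ddx3y* was at 0 in WT and at 26.2 to 35.0 in cKO libraries. Genotype and the sex of the mice therefore cannot be told apart here; all 10 genes are autosomal.

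Of the 10 genes, 6 were lower in the cKO libraries, 1 was higher and 3 did not pass the test (limma, Benjamini-Hochberg adjusted p under 0.05 over all genes tested). The genes that fell were *Nfatc1*, *Nfatc2*, *Nfat5*, *Stim1*, *Rcan1* and *Ppp3cb*, the gene that rose was *Nfatc3*, and *Ppp3ca*, *Ppp3r1* and *Orai1* were not called. Among all genes tested, 65.5% were called, 29.8% as lower and 35.8% as higher, so a call alone was common in these data. The median log2 fold change of the 10 genes was -0.41, beside 0.04 over all genes tested. Ranked by log2 fold change, 7.26% of all genes tested lay below *Nfatc1*, 8.17% below *Nfat5*, 9.44% below *Nfatc2* and 69.6% below *Nfatc3*. Entering WT as 1 sample left 3 genes as lower (*Nfatc1*, *Nfatc2* and *Nfat5*) and none as higher, where 15.9% of all genes were called, 8.74% lower and 7.16% higher. Quantile normalization gave 7 lower and none higher (29.9% and 33.3% of all genes), the same FPKM total 10 lower and none higher (59.9% and 8.74%), and a correction for GC content and length 6 lower and 1 higher (27.5% and 29.7%). All cKO values lay below all WT values for 6 genes and above them for 1 gene, beside 33.3% and 39.2% of all genes tested (72.5% in either direction), and 3 genes overlapped.

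**Figure D1:**
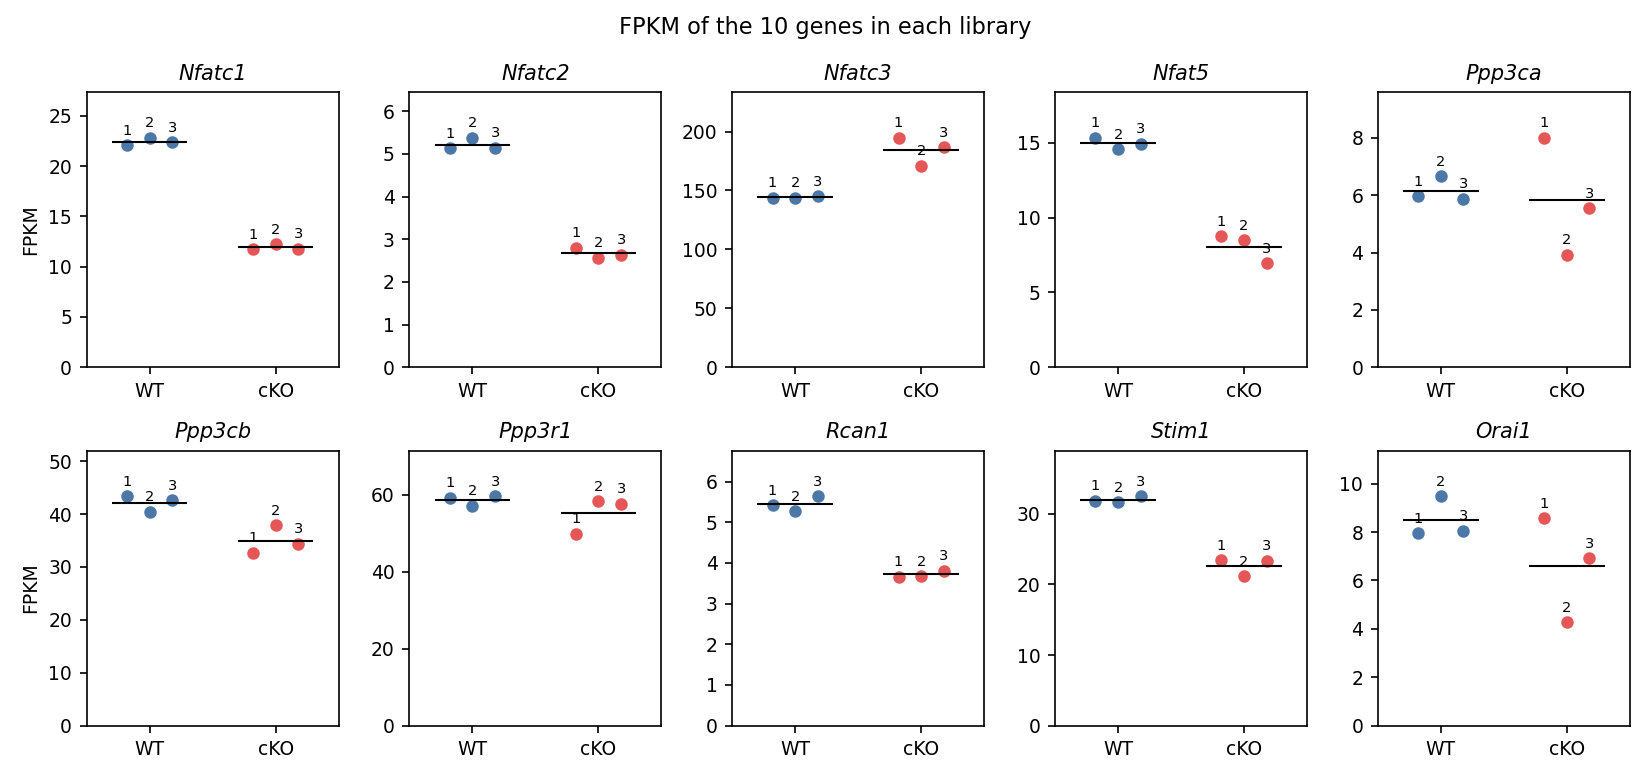
FPKM of the 10 genes in each library, with a separate axis from 0 for each gene; points are libraries numbered by replicate, and horizontal lines are group means (n = 3 libraries per group). *Nfatc1*, *Nfatc2*, *Nfat5*, *Stim1*, *Rcan1* and *Ppp3cb* lie lower in every cKO library than in any WT library, *Nfatc3* lies higher, and *Ppp3ca* and *Orai1* are spread widely over the cKO libraries.

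The branch starts with calcium entry. *Stim1*, the sensor of the endoplasmic reticulum (chr7:102267806-102437319, plus strand; here and below the build is GRCm38), was measured at 31.8, 31.6 and 32.5 FPKM across WT and at 23.5, 21.2 and 23.3 FPKM across cKO libraries. The groups did not overlap, and each group was tight. The cKO mean was 70.8% of the WT mean, a log2 fold change of -0.48 ± 0.067 (SE) on the log2(FPKM + 1) scale, with an adjusted p of 0.000895. The call was lost with WT as 1 sample (adjusted p = 0.0814), and a correction for GC content and length brought the log2 fold change to -0.19 (adjusted p = 0.0349).

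*Orai1*, the pore-forming channel that STIM1 opens (chr5:123015074-123030456, plus strand), was less abundant than *Stim1*, at 7.95, 9.48 and 8.06 FPKM in the WT libraries. In the cKO libraries its values were 8.58, 4.27 and 6.91. The cKO libraries themselves disagreed, with a coefficient of variation (CV, the SD as a percent of the mean) of 33.0%, and replicate 1 lay within the WT range. The log2 fold change of -0.36 had a 95% confidence interval from -0.86 to 0.13 (adjusted p = 0.167). Without cKO replicate 1 it became -0.55 and passed the test (adjusted p = 0.0439), without cKO replicate 2 it was -0.11, and the GC content and length correction turned it to 0.080. *Orai1* had the highest GC content of the 10 genes, at 60.2%, and an estimated 130.2 to 289.9 fragments per library. The ratio of *Stim1* to *Orai1* was 3.79 ± 0.392 (SD, n = 3) in WT and 3.69 ± 1.14 (SD, n = 3) in cKO libraries, and the groups overlapped.

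The paralogs of both genes were read beside them. *Stim2*, the second sensor, had FPKM of 15.1, 16.0 and 14.9 in WT and of 11.9, 13.5 and 10.2 in cKO libraries. It fell by 0.36 on the log2 scale (adjusted p = 0.0166), although without WT replicate 2 the call was lost (adjusted p = 0.0656). *Orai2* was the most abundant of the 3 ORAI genes per length, at 58.0, 57.9 and 57.3 FPKM in WT and 46.6, 48.6 and 44.4 in cKO libraries. It fell by 0.31 on the log2 scale (adjusted p = 0.00383), but the correction for GC content and length turned it to 0.084 (adjusted p = 0.237). *Orai3* was at 3.12, 3.04 and 2.79 FPKM in WT and at 2.03, 1.86 and 2.79 in cKO libraries, and its log2 fold change of -0.31 did not pass the test (adjusted p = 0.0535), though it did without cKO replicate 3 (adjusted p = 0.00826) and at the same FPKM total (adjusted p = 0.00063). Summed over the 3 ORAI genes, the level was 69.2 ± 1.14 FPKM (SD, n = 3) in WT and 55.3 ± 1.63 FPKM (SD, n = 3) in cKO libraries.

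Calcineurin is made of a catalytic and a regulatory subunit. *Ppp3cb*, the catalytic subunit of the beta isoform (chr14:20499364-20546573, minus strand), was by far the more abundant of both catalytic genes examined, with a ratio to *Ppp3ca* of 6.87 ± 0.689 (SD, n = 3) in WT and 6.65 ± 2.82 (SD, n = 3) in cKO libraries. Its FPKM were 43.3, 40.4 and 42.6 in WT and 32.7, 37.9 and 34.4 in cKO libraries. The groups did not overlap, though the lowest WT and the highest cKO value lay near each other. The cKO mean was 83.1% of the WT mean and the log2 fold change -0.26 ± 0.073 (SE), with an adjusted p of 0.0154. This call did not survive leaving out WT replicate 1 (adjusted p = 0.0750) or WT replicate 3 (adjusted p = 0.0688), nor entering WT as 1 sample (adjusted p = 0.274), and the GC content and length correction gave -0.47.

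*Ppp3ca*, the alpha catalytic subunit (chr3:136670124-136937727, plus strand), was at 5.96, 6.65 and 5.87 FPKM in the WT libraries. The cKO values were 8.0, 3.92 and 5.54. One cKO library was thus above and the others below all WT values, with a CV of 35.3% against 6.95% in WT. The log2 fold change was -0.11 with a 95% confidence interval from -0.60 to 0.37 (adjusted p = 0.649). Leaving out cKO replicate 2 turned it to 0.11, and leaving out cKO replicate 1 gave -0.33, with no call in either case. For *Ppp3ca*, *Orai1*, *Nfatc3*, *Nfatc2* and *Stim1*, cKO replicate 1 was highest, replicate 3 between and replicate 2 lowest. *Ppp3cb*, *Ppp3r1* and *Nfatc1* took the reverse order, and *Nfat5* and *Rcan1* took neither. The estimated depths of cKO replicates 1, 3 and 2 rose from 13.1 through 17.4 to 20.6 M fragments. The WT libraries were at 20.7 to 20.8 M. The part of depth in the spread of the cKO libraries was not tested. The median CV over all genes tested was 12.2% in cKO and 3.40% in WT libraries. The sum of *Ppp3ca* and *Ppp3cb* was less variable than *Ppp3ca* alone, at 48.3 ± 1.13 FPKM (SD, n = 3) in WT and 40.8 ± 0.943 FPKM (SD, n = 3) in cKO libraries.

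*Ppp3r1*, the calcium-binding regulatory subunit (chr11:17159263-17200375, plus strand), had FPKM of 59.2, 57.2 and 59.6 in WT and of 49.9, 58.3 and 57.7 in cKO libraries. The groups overlapped because of cKO replicates 2 and 3, and only cKO replicate 1 stood below. The log2 fold change was -0.09, with a 95% confidence interval from -0.27 to 0.09 (adjusted p = 0.339). Quantile normalization and the GC content and length correction each gave -0.30 and a call as lower. Part of the exons of *Ppp3r1*, 462 of 3228 nucleotides, is shared with *Wdr92* on the same strand, so reads there could belong to either gene. The third catalytic gene, *Ppp3cc*, was at 3.32, 3.51 and 3.73 FPKM in WT and at 3.20, 3.97 and 3.93 in cKO libraries, a log2 fold change of 0.05 (adjusted p = 0.633) that was -0.39 when libraries were set to the same FPKM total. *Ppp3r2*, the regulatory subunit known from testis, was listed at 0 in every library.

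Among the NFAT genes the pattern was split. *Nfatc1*, *Nfatc2* and *Nfat5* fell to between 51.2% and 53.9% of their WT means, while *Nfatc3*, the NFAT gene known to predominate in DP thymocytes, rose to 128%. *Nfatc1*, known in T cells for the isoforms induced upon activation, lies on chromosome 18 (chr18:80606205-80713071, minus strand). Its FPKM were 22.1, 22.8 and 22.4 in WT and 11.7, 12.2 and 11.8 in cKO libraries. The groups were far apart, with a CV of 1.59% in WT and 2.29% in cKO. Both CVs were below the estimated counting error per library, 2.20% to 2.23% in WT and 3.01% to 3.86% in cKO. On the log2 scale the change was -0.86 ± 0.057 (SE), with an adjusted p of 0.000106, and it passed the test with WT as 1 sample (adjusted p = 0.0313). The GC content and length correction reduced it to -0.49 (adjusted p = 0.00114).

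*Nfatc2*, the NFAT gene known from resting peripheral T cells (chr2:168476410-168601657, minus strand), was the least abundant of the 4 per length. The WT libraries were at 5.13, 5.37 and 5.14 FPKM and the cKO libraries at 2.80, 2.57 and 2.64 FPKM. The groups were well separated, and the cKO mean was 51.2% of the WT mean. This gave a log2 fold change of -0.76 ± 0.072 (SE), with an adjusted p of 0.000238. The CV was 2.62% in WT and 4.53% in cKO. Both were below the estimated counting error per library, 4.76% to 4.86% in WT and 6.89% to 8.28% in cKO. The spread behind this SE therefore does not measure how tight the libraries are. The correction for GC content and length lowered it to -0.19 and ended the call (adjusted p = 0.0530); *Nfatc2* had the second highest GC content of the 10 genes, at 57.0%. *Nfatc1* and *Nfatc2* kept their ratio: it was 4.30 ± 0.0539 (SD, n = 3) in WT and 4.47 ± 0.289 (SD, n = 3) in cKO libraries, with overlapping values.

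*Nfat5*, the family member that responds to osmotic stress and is not a target of calcineurin (chr8:107293470-107379517, plus strand), had FPKM of 15.3, 14.6 and 15.0 in WT and of 8.76, 8.49 and 6.97 in cKO libraries. The groups were apart, and cKO replicate 3 was the lowest library. Its log2 fold change was -0.82 ± 0.091 (SE), with an adjusted p of 0.000399, and all settings kept it between -0.73 and -1.33. Unlike *Nfatc1* and *Nfatc2*, *Nfat5* is long (6795 nucleotides on average over its transcripts) and of low GC content (44.2%), and the correction for both left it at -0.78.

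*Nfatc3* (chr8:106058840-106130537, plus strand) was the most abundant of the 10 genes. It was at 143.9, 143.9 and 145.1 FPKM in the WT libraries and at 194.6, 171.0 and 186.5 FPKM in the cKO libraries. All cKO values were above all WT values. The log2 fold change was 0.35 ± 0.077 (SE), with an adjusted p of 0.00635, whereas it was -0.11 (adjusted p = 0.10) after quantile normalization and -0.21 (adjusted p = 0.0313) when all libraries were set to the same FPKM total, and with WT as 1 sample it was not called (adjusted p = 0.238). The summed FPKM of a library was 521296 to 531517 in WT and 701396 to 850548 in cKO, and setting these sums equal shifted the median log2 fold change of all genes tested from 0.04 to -0.45. In contrast to the direction of *Nfatc3* alone, its place relative to the other NFAT genes does not depend on a scaling factor per library. *Esrp2*, on the opposite strand, shares 219 of the 11726 exon nucleotides of *Nfatc3*, and the strand setting of the counting was not given in the sources used here. *Nfatc4*, the remaining calcium-regulated NFAT gene, did not exceed 0.0245 FPKM in any library.

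Relative to each other, the NFAT genes shifted toward *Nfatc3* in every cKO library. Its share of the summed FPKM of *Nfatc1*, *Nfatc2*, *Nfatc3* and *Nfat5* was 77.2%, 77.1% and 77.4% in the WT libraries and 89.3%, 88.0% and 89.7% in the cKO libraries. Mean shares were 77.2% ± 0.137 (SD, n = 3) and 89.0% ± 0.886 (SD, n = 3), a difference of 11.8 percentage points. The share of *Nfatc1* went from 12.0% ± 0.192 to 5.78% ± 0.466, that of *Nfat5* from 8.01% ± 0.205 to 3.91% ± 0.517, and that of *Nfatc2* from 2.79% ± 0.0761 to 1.29% ± 0.0269 (SD, n = 3 each). The FPKM of *Nfatc2* spread less than counting error, so the SDs of its share do not measure precision. None of these 4 shares overlapped between the groups. In absolute FPKM the 3 genes that fell summed to 42.6 ± 0.155 in WT and 22.7 ± 1.10 in cKO libraries (SD, n = 3), and with *Nfatc3* included the sums were 186.9 ± 0.568 and 206.7 ± 11.9 (SD, n = 3). The ratio of *Nfatc3* to *Nfatc1* went from 6.44 ± 0.109 to 15.5 ± 1.34 (SD, n = 3). These shares and ratios carry no test; leaving out any 1 library kept the difference of the *Nfatc3* share between 11.5 and 12.3 points, and counting estimated fragments in place of FPKM gave 13.5 points.

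**Figure D2:**
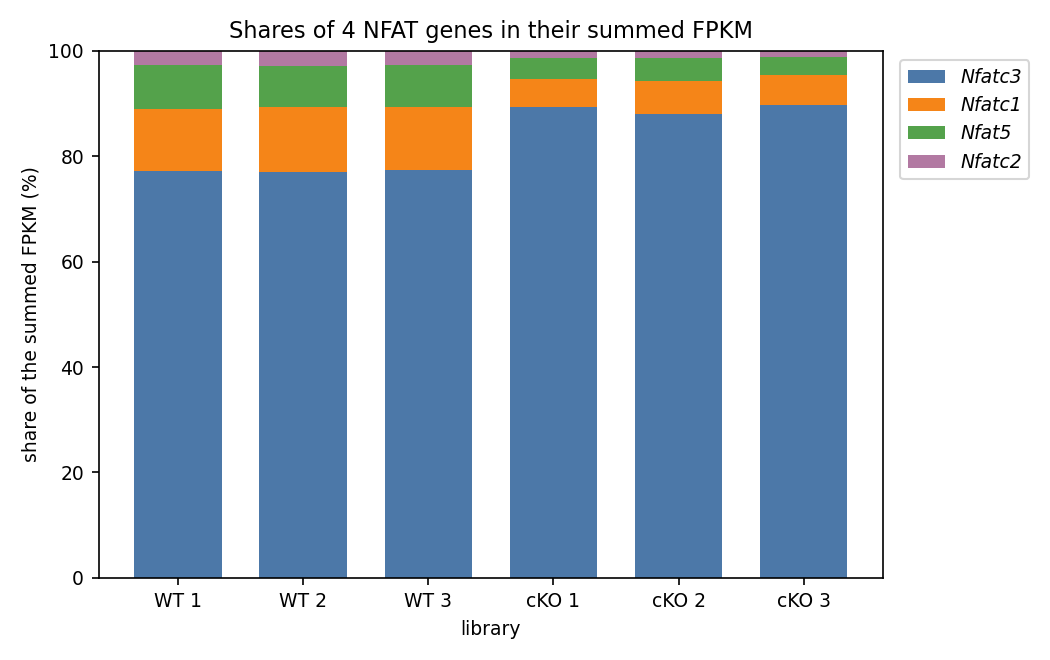
Shares of *Nfatc3*, *Nfatc1*, *Nfat5* and *Nfatc2* in the sum of their FPKM (percent, vertical axis) in each of the 6 libraries (horizontal axis). *Nfatc3* takes 77.1% to 77.4% of the sum in WT and 88.0% to 89.7% in cKO libraries, while each of the other genes takes less in every cKO library than in any WT library.

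*Rcan1*, an inhibitor of calcineurin whose short isoform is itself transcribed from an internal start that NFAT is known to activate, closes the loop (chr16:92391953-92470867, minus strand). Its FPKM were 5.42, 5.27 and 5.64 in WT and 3.66, 3.67 and 3.81 in cKO libraries. The cKO libraries lay below the WT libraries, with a CV of 2.19%. That CV is below their estimated counting error of 8.31% to 10.4% per library, so it does not measure how tight they are. The log2 fold change was -0.45 ± 0.068 (SE), with an adjusted p of 0.00126, and it was not called with WT as 1 sample (adjusted p = 0.0991). It rested on the fewest fragments of the 10 genes, an estimated 91.7 to 222.8 per library, for which counting error alone is up to 10.4%. *Rcan3*, its relative, was at 3.46, 3.47 and 3.33 FPKM in WT and at 1.72, 1.89 and 2.06 in cKO libraries, and fell by 0.61 on the log2 scale (adjusted p = 0.000706). *Rcan2* did not exceed 0.0659 FPKM in any library.

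RefSeq (GRCm38.p6) start windows ran from 250 bases before to 50 bases after a start. Windows on the chromosome of *Nfatc1* were left out, and none was used for *Ppp3ca*. This left 11 windows, of 8 of the 10 genes. They were searched for GGAAA, the core that NFAT binds, read on either strand (TTTCC on the other), and for TGANTCA, the AP-1 site, which is the same pattern on both strands. Matches of the motifs cannot share bases. Both windows of *Rcan1* are shown because they differ in both motifs, and the most upstream windows of *Nfatc2* and *Nfatc3* because these genes moved in opposite directions. Capitals mark matches of either motif, and each sequence is read 5′ to 3′ on the gene's strand.
Rcan1 internal start, chr16:92400029-92400328, minus strand: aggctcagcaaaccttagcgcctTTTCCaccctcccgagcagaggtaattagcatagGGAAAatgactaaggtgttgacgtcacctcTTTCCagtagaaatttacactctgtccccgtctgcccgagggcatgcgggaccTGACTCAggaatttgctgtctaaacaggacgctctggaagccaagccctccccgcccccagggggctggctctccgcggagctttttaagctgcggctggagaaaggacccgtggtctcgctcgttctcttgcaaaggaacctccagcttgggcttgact
Rcan1 upstream start, chr16:92466120-92466419, minus strand: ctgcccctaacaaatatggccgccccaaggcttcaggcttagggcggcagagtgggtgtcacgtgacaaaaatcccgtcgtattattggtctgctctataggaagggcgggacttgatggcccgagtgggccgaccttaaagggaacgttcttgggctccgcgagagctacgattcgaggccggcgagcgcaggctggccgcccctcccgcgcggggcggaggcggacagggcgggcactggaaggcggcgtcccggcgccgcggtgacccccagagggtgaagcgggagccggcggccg
Nfatc2 upstream start, chr2:168601608-168601907, minus strand: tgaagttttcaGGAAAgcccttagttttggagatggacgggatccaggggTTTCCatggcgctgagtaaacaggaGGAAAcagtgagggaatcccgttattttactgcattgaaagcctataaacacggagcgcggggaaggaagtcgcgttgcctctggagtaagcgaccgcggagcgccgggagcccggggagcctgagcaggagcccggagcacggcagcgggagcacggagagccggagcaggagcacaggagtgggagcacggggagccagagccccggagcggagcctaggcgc
Nfatc3 upstream start, chr8:106058568-106058867, plus strand: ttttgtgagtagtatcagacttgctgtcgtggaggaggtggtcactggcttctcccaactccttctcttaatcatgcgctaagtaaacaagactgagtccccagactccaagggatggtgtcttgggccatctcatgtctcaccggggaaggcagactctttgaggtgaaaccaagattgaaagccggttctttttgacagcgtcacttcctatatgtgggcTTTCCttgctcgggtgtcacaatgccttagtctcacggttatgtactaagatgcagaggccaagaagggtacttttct
The internal *Rcan1* window held 3 matches of GGAAA and 1 of TGANTCA, the upstream window held neither. Of 32851 windows in the table, 61.3% had at least 1 GGAAA, 9.42% had 3 or more, and 7.81% had a TGANTCA. The upstream *Nfatc2* window held 3 matches of GGAAA, its other window 1, the upstream *Nfatc3* window 1 and its other window 0. The window of *Ppp3cb* held 4 (2.65% of all windows held 4 or more), that of *Nfat5* 2, and those of *Ppp3r1*, *Stim1* and *Orai1* none; in all, 6 of the 11 windows held GGAAA. A match describes letters only, and since FPKM sum all starts of a gene, the use of the internal *Rcan1* start was not separated from that of the upstream start.

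**Figure D3:**
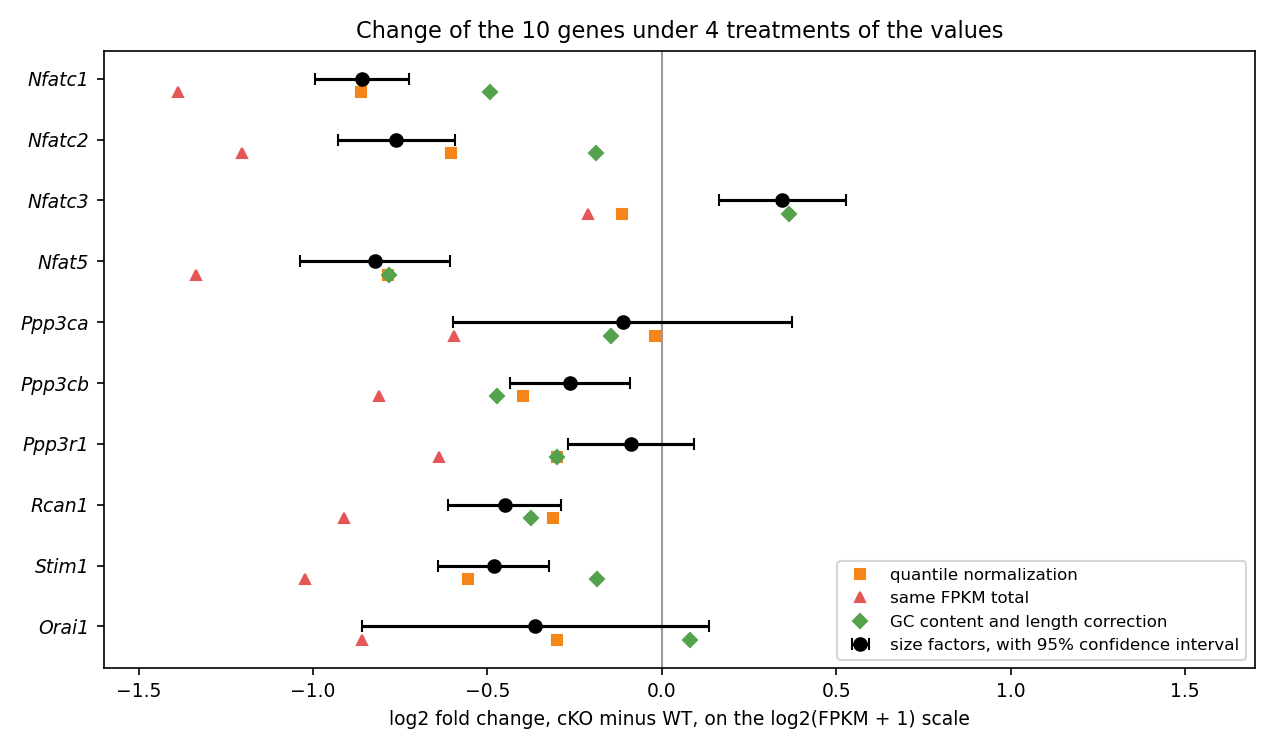
Log2 fold change of the 10 genes, cKO minus WT, on the log2(FPKM + 1) scale (horizontal axis) under 4 treatments of the values: black points with 95% confidence intervals from limma after size factors, orange squares after quantile normalization, red triangles after setting all libraries to the same FPKM total, and green diamonds after correction for GC content and length. *Nfatc1*, *Nfatc2*, *Nfat5*, *Stim1*, *Rcan1* and *Ppp3cb* are negative under all 4, whereas *Nfatc3* changes sign under quantile normalization and the same total, and *Orai1* under the GC content and length correction.

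The other genes of the branch were counted in 4 lists, with 58 genes listed and 48 tested. Of the 48, 28 were lower, 6 higher and 14 not called, beside 29.8% lower and 35.8% higher among all genes tested. The lower genes include *Egr3*, *Nr4a2* and *Cd40lg*, which were under 1 FPKM in every cKO library. These genes entered the test only through their WT values, which limits each count and median that includes them. With WT as 1 sample, 7 were lower and none higher (8.74% and 7.16% of all genes): *Plcg1*, *Itpr3*, *Cabin1*, *Gsk3a*, *Csnk1e*, *Nr4a3* and *Cd40lg*. At the same FPKM total 41 were lower and 2 higher, beside 59.9% and 8.74% of all genes. The 4 lists had medians of log2 fold change of -0.36 for calcium release and entry, 0.08 for calmodulin and calcineurin partners, -0.43 for NFAT kinases, carriers and partners, and -0.76 for genes known as NFAT targets, beside 0.04 for all genes tested. The last median was -0.38 to -0.40 when any 1 of the WT libraries was left out, and -0.45 with no filter on low values.

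In the list of calcium release and entry, 11 of 16 tested genes were lower, 1 was higher and 4 were not called. The shares over all genes tested were 29.8% lower and 35.8% higher. *Plcg1*, the phospholipase that starts the calcium signal, had FPKM of 55.6, 55.5 and 55.8 in WT and of 28.7, 28.6 and 23.0 in cKO libraries. It fell by 1.04 on the log2 scale (adjusted p = 0.000205), and by 0.75 after correction for GC content and length. The inositol trisphosphate receptors, which release the store, differed among themselves. *Itpr3* went from 14.2, 14.2 and 13.5 FPKM in WT to 6.84, 6.60 and 5.85 in cKO libraries, a log2 fold change of -1.01 (adjusted p = 0.000134) that the GC content and length correction reduced to -0.29. *Itpr1* fell by 0.32 on the log2 scale (adjusted p = 0.00381), from 19.3, 19.3 and 19.4 to 15.9, 15.5 and 14.4 FPKM. *Itpr2*, the most abundant of the 3 per length, was at 36.2, 37.1 and 36.2 FPKM in WT and at 53.2, 34.9 and 43.9 in cKO libraries, and its log2 fold change of 0.24 did not pass the test (adjusted p = 0.175). It was called higher without cKO replicate 2 (adjusted p = 0.00489) and with the GC content and length correction (adjusted p = 0.0258), but lower at the same FPKM total (-0.31, adjusted p = 0.0499). On the side that ends the signal, *Atp2a3*, a pump that refills the store, fell by 0.75 on the log2 scale (adjusted p = 0.000724), from 126.2, 127.0 and 125.0 FPKM to 82.6, 65.1 and 77.0 FPKM, a call that the GC content and length correction ended (-0.15, adjusted p = 0.199). *Saraf*, which turns store-operated entry off, was the gene called higher, at 240.3, 242.7 and 243.2 FPKM in WT and 314.3, 295.6 and 370.1 in cKO libraries (log2 fold change 0.42, adjusted p = 0.00858), but -0.077 after quantile normalization and -0.14 at the same FPKM total.

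Between calcium and calcineurin, 3 of 9 tested partners were higher and 2 lower, which for the higher genes is about the share among all genes tested (35.8%). *Calm2* and *Calm3* encode calmodulin, the calcium sensor that activates calcineurin. *Calm2* was at 377.3, 381.3 and 371.8 FPKM in WT and at 598.9, 657.1 and 706.0 in cKO libraries, and rose by 0.79 (adjusted p = 0.000492), though by 0.17 with no call after correction for GC content and length (adjusted p = 0.0619) and by 0.23 with no call at the same FPKM total (adjusted p = 0.0543). *Calm3*, at 121.1, 120.9 and 115.9 FPKM in WT and 119.8, 140.7 and 142.6 in cKO libraries, did not pass the test (log2 fold change 0.17, adjusted p = 0.124), and was -0.22 after quantile normalization and -0.39 at the same FPKM total (adjusted p = 0.0124). It was called higher after correction for GC content and length (0.44, adjusted p = 0.00574) and without cKO replicate 1 (0.25, adjusted p = 0.0137). *Ppia*, the cyclophilin through which cyclosporin inhibits calcineurin, rose by 0.96 on the log2 scale (adjusted p = 0.00152), from 2632, 2752 and 2743 to 4870, 5116 and 5917 FPKM, and showed no change (0.0011, adjusted p = 0.994) after quantile normalization. *Cabin1*, an inhibitor that binds calcineurin, was at 19.3, 19.2 and 19.5 FPKM in WT and at 9.24, 8.46 and 7.65 in cKO libraries, and fell by 1.11 (adjusted p = 0.000114). Calmodulin genes and *Ppia* have processed pseudogenes elsewhere in the genome, and how the authors' counting shared reads among such copies was not given in the sources used here, so their values are uncertain.

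Of the kinases, carriers and other partners of NFAT, 7 of 12 tested were lower, 1 was higher and 4 were not called. For comparison, 29.8% of all genes tested were lower and 35.8% higher. *Gsk3a*, a kinase that phosphorylates NFAT, was at 83.2, 82.6 and 81.9 FPKM in WT and at 40.9, 46.5 and 46.9 in cKO libraries, and fell by 0.87 (adjusted p = 0.000162), or by 0.34 after correction for GC content and length. *Gsk3b* fell by 0.26 (adjusted p = 0.0112), from 29.4, 30.3 and 29.3 to 26.2, 24.5 and 23.4 FPKM, a call lost without WT replicate 2 (adjusted p = 0.0584). Of the 3 casein kinase genes listed, which also phosphorylate NFAT, 2 fell, and *Csnk1a1* did not pass the test (log2 fold change -0.18, adjusted p = 0.0555). *Csnk1e* was at 63.7, 64.2 and 63.3 FPKM in WT and at 30.9, 37.3 and 32.7 in cKO libraries (log2 fold change -0.91, adjusted p = 0.000184). *Csnk1d* was at 58.6, 59.3 and 56.6 FPKM in WT and at 34.3, 42.7 and 36.2 in cKO libraries (-0.62, adjusted p = 0.000901). Neither *Csnk1e* nor *Csnk1d* overlapped between the groups, which also held for 72.5% of all genes tested. *Dyrk1a*, the priming kinase, was at 46.1, 47.5 and 48.2 FPKM in WT and at 39.4, 48.0 and 43.2 in cKO libraries, and did not pass the test (log2 fold change -0.12, adjusted p = 0.216), though it was called lower without cKO replicate 2 (adjusted p = 0.0215), after quantile normalization (adjusted p = 0.0244) and at the same FPKM total (adjusted p = 0.00214). *Xpo1*, the exportin that carries NFAT out of the nucleus among many other cargoes, was the gene that rose, at 40.5, 38.4 and 40.9 FPKM in WT and 53.4, 57.8 and 54.1 in cKO libraries (log2 fold change 0.45, adjusted p = 0.000901), though it was -0.10 at the same FPKM total.

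Of the genes known as NFAT targets in T cells, 8 of 11 tested were lower, 1 was higher and 2 were not called. Over all genes tested, 29.8% were lower and 35.8% higher. The count of targets does not stand for the whole list. *Egr3*, *Nr4a2* and *Cd40lg* were under 1 FPKM in every cKO library and entered the test only through their WT values. Of the 8 other tested targets, 5 were lower, 1 was higher and 2 were not called. *Nr4a3*, a nuclear receptor induced by T cell receptor signals, was at 4.69, 4.76 and 4.64 FPKM in WT and at 1.75, 1.95 and 1.55 in cKO libraries, and fell by 1.05 (adjusted p = 0.000146). *Cd40lg*, the ligand by which T cells help B cells, was at 2.03, 1.59 and 1.72 FPKM in WT and at 0.148, 0.473 and 0.112 in cKO libraries (log2 fold change -1.16, adjusted p = 0.000473). *Nr4a2* fell by 0.91 (adjusted p = 0.000938), from 1.99, 2.09 and 2.09 to 0.683, 0.879 and 0.363 FPKM. *Nr4a1*, named after its values were seen because it had the lowest log2 fold change of the list, was at 80.1, 80.5 and 82.3 FPKM in WT and at 27.7, 54.1 and 27.0 in cKO libraries (-1.21, adjusted p = 0.0040). *Pdcd1*, which encodes the inhibitory receptor PD-1, rose by 0.69 (adjusted p = 0.00235), from 4.24, 4.76 and 5.21 to 7.70, 7.34 and 9.90 FPKM, a call lost at the same FPKM total (0.21, adjusted p = 0.129) and with WT as 1 sample (adjusted p = 0.0638). *Il2*, the classical NFAT target of activated T cells, was listed at 0 in every library. When any 1 of the WT libraries was left out, only these 8 targets were tested, of which 4 were lower, since *Tox* then lost its call.

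**Figure D4:**
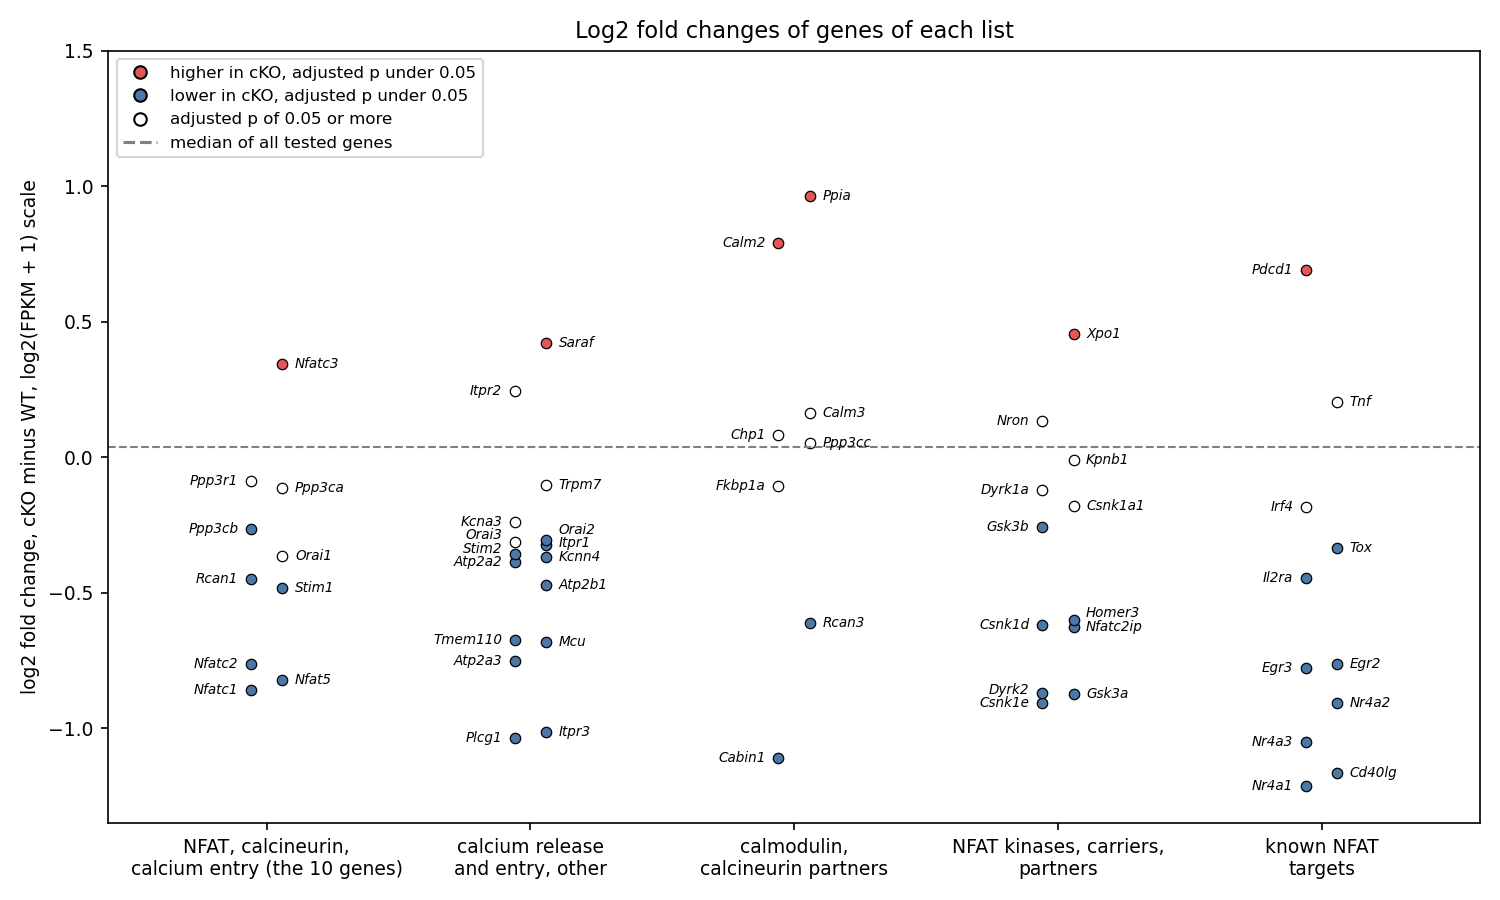
Log2 fold change, cKO minus WT, on the log2(FPKM + 1) scale (vertical axis) of genes of the branch, grouped by list (horizontal axis); red points were called higher, blue points lower and white points were not called by limma, and the dashed line is the median of all genes tested, 0.04. Blue points outnumber red points in the lists other than that of calmodulin and calcineurin partners, and *Ppia* and *Calm2* are the highest points of the plot.

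Markers of other stages moved with these genes. Calls were common, with 29.8% of all genes tested lower and 35.8% higher. Of 8 markers of mature SP cells, 6 were lower in the cKO libraries, 1 was higher and 1 was not tested. Among the 6, *S1pr1* and *Zbtb7b* were under 1 FPKM in every cKO library. Both entered the test only through their WT values, which limits this count. *Ccr7* was at 15.1 to 16.2 FPKM in WT and at 1.16 to 2.50 in cKO libraries. The summed SP markers ranged from 120.4 to 123.4 FPKM in WT and from 100.1 to 121.7 FPKM in cKO libraries. All 6 markers of cycling cells were higher, with sums of 758.4 to 768.0 FPKM in WT and 1568 to 1808 FPKM in cKO libraries. In bulk samples, fewer cells of a type and less RNA per cell cannot be told apart, and the part of cell composition or cycling in the changes of *Nfatc1*, *Nfatc2*, *Nfat5* or the known targets was not tested. Summed erythroid markers were at 2.00 to 2.79 FPKM in WT and at 12.5 to 26.9 FPKM in cKO libraries. Of 5 markers of thymic epithelium, *Foxn1* and *Krt5* were at 0 in every library, *Psmb11* and *Krt8* did not exceed 0.177 FPKM, and *Epcam* was at 3.44 to 3.71 FPKM in WT and 1.88 to 3.59 FPKM in cKO libraries. Summed myeloid markers were at most 8.01 FPKM in all libraries, and 4 of 5 B cell markers were under 1 FPKM in all libraries, with *Cd79b* the exception. Of 5 markers of double negative thymocytes, 3 were lower. *Cd44* was not called, and 1 marker was not tested. *Il2ra*, one of the lower genes, is also counted above among the known NFAT targets. The sum of all 5 was 37.6 to 39.3 FPKM in WT and 19.8 to 24.5 FPKM in cKO libraries. *Notch1* made up most of it, at 25.8 to 26.3 FPKM in WT and 11.6 to 14.1 FPKM in cKO libraries.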

How the data were processed

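Gene expression was measured by mRNA-seq in 3 WT and 3 NSrp70-cKO libraries of sorted DP thymocytes; groups and replicate numbers came from the labels. The authors made poly(A)-enriched directional libraries, removed ribosomal RNA, sequenced paired ends, mapped them to mm10 with TopHat and deposited FPKM per gene symbol, calculated with Cufflinks; versions, annotation and strand setting are not given in the sources used here. The study tested counts with a negative binomial model; the deposited FPKM are not counts, so limma 3.58.1 (lmFit, eBayes with trend; R 4.3.3) was fitted on log2(FPKM / size factor + 1) over 10326 of 23183 symbols (minimum FPKM 1, reached in 3 libraries), with Benjamini-Hochberg adjustment at 0.05; fold changes on this scale understate changes of low genes. Size factors were 1.00 to 1.01. The fit was tested on simulated data.

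Depth was estimated from the steps that 1 fragment makes in the FPKM of low genes, for which 69.7% to 76.9% of values per library lay within 0.1 of a whole number, and intervals from it cover counting error only. Positions, lengths and GC content came from GENCODE M21 (GRCm38), in which 22110 symbols matched and 640 more matched through RefSeq synonyms; 99.1% of tested genes had both length and GC content. Alternatives were a pseudocount of 0.1, no filter, no size factors, quantile normalization, the same FPKM total, no trend, a replicate block, WT as 1 sample, a spline correction for GC content and length, and leaving out each library. The 10 genes, the gene lists and the markers were chosen with earlier results of these data known. Named were all 10 genes, up to 3 called genes per direction and list with the smallest adjusted p, and *Plcg1* and the paralogs of the 10 genes with their best-known partners whatever their values. The numbers of depth, shares and windows came from Python 3.11.15 with pandas 2.3.3, numpy 2.4.6 and matplotlib 3.10.9. *Nr4a1*, *Csnk1a1*, *Tox*, *Egr3* and the markers *S1pr1*, *Zbtb7b*, *Il2ra*, *Notch1* and *Cd44* were named after their values were seen. Some genes of the lists and markers are counted but not reported here by name.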

Additional observations from a re-analysis of the deposited data

How the results depend on the processing

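Calls among the 10 genes numbered 7 (6 lower, 1 higher); with WT as 1 sample 3 were called, 3 lower and 0 higher, quantile normalization gave 0 higher, and the same FPKM total gave 0 higher and 10 lower. Over the lists 34 genes were called, 28 lower and 6 higher; with WT as 1 sample 7 were called, 7 lower and 0 higher, and the same FPKM total gave 2 higher. Over all genes tested, 6766 were called; with WT as 1 sample 1641 were called, 902 lower and 739 higher, and the same FPKM total gave 6181 lower and 902 higher. The difference in *Nfatc3* share of 11.8 points was 13.5 points over estimated fragments.

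Log2 fold changes that turned were, after quantile normalization, *Nfatc3* (-0.11), *Calm3* (-0.22) and *Saraf* (-0.077); at the same FPKM total, *Nfatc3* (-0.21), *Itpr2* (-0.31), *Ppp3cc* (-0.39), *Calm3* (-0.39), *Saraf* (-0.14) and *Xpo1* (-0.10); after correction for GC content and length, *Orai1* (0.080), *Orai2* (0.084) and *Ppp3cc* (-0.056); and without cKO replicate 2, *Ppp3ca* (0.11, against -0.33 without cKO replicate 1). The causes were not tested, apart from the same total, which by construction lowers every gene in the cKO libraries.

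Leaving out 1 library at a time gave 6 to 8 called among the 10 genes (5 to 7 lower, 1 higher each time), 27 to 40 over the lists (21 to 31 lower, 6 to 9 higher), 5404 to 7637 over all genes (2324 to 3526 lower, 3071 to 4111 higher) and share differences of 11.5 to 12.3 points. Replicate numbers were shared by the groups. The deviations of same-numbered libraries had correlations of -0.022, 0.038 and 0.031. The WT deviations were mostly counting noise, so these correlations could be small even for paired libraries. They therefore cannot decide whether same-numbered libraries were paired. With a replicate block, 7 of the 10 genes, 34 list genes and 6467 of all genes were called. No call of the 10 genes changed. A pseudocount of 0.1, no filter, no size factors and no trend kept the direction and the call of each of the 10 genes. Depth limits *Rcan1*, *Orai1* and *Nfatc2* most, and 3 libraries per group with near-technical WT spread limit all p-values.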
